A study of Mus musculus with 9 samples.

Results

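The oligoadenylate synthetases (OAS) are enzymes that sense double-stranded RNA, and 8 mouse genes of the family (Oas1a, Oas1b, Oas1f, Oas1g, Oas2, Oas3, Oasl1 and Oasl2) were followed in liver. They were chosen by gene symbol and are 8 of 27670 genes and 10 of 41174 probes on the array. All 8 genes had at least 1 probe. The filter on dim probes left 8 of the 10 probes and 7 of the 8 genes to be tested, since Oas1g did not pass.

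Liver RNA of male C57BL/6 mice aged 3 months was hybridised to 9 one-colour Agilent arrays, 3 for each of 3 groups. The AAV-hGRβ group received an adeno-associated virus (AAV) vector for hGRβ, the β isoform of the glucocorticoid receptor of human, a splice form that lacks the usual hormone-binding end. The AAV-GFP group received the same kind of vector for green fluorescent protein, and the WT group was untreated. AAV-hGRβ and AAV-GFP mice therefore share the exposure to AAV, and the study asks how the isoform acts in mouse liver. Promoter, vector dose, time after the vector and any pooling of animals were not given in the sources used here, and the transgenes themselves were not analysed here. The labels number the replicates within each group (AAV-hGRβ 1 to 3, AAV-GFP 1 to 3, WT 2 to 4) but do not say that they are separate animals. All p-values therefore measure the spread between these samples, which may be technical.

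OAS enzymes that bind double-stranded RNA join ATP into short chains called 2-5A. These chains act as a second messenger in the defence of a cell against viruses. Interferon induces many genes of the family through a promoter element, the interferon-stimulated response element (ISRE), which binds interferon regulatory factors (IRF proteins), IRF9 among them. In mouse, Oas1a and Oas1g encode active synthetases. Oas1b is known as a flavivirus resistance gene and carries a premature stop in C57BL/6 as in most laboratory strains. Oas2 and Oas3 hold repeated copies of the synthetase unit, and the products of Oasl1 and Oasl2 carry ubiquitin-like domains.

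The start-site flanks of the family are shown because the members moved together on the arrays, as described further down. RefSeq promoter windows on GRCm38.p6, the 250 bases before each start, were at hand for 6 of the 8 members (all but Oas2 and Oas1b), and both strands were searched for the ISRE core, which is 2 copies of GAAA with any 2 bases between them. It was found in 3 of the 6 windows, those of Oas1a, Oas1g and Oas3, and also in the window of Oas1c, a further gene of the same cluster. Over all 32851 windows of the same length, 978 (2.98%) held it. Capitals mark the ISRE matches in these 100-base stretches, all read 5′ to 3′ on the minus strand of chromosome 5, at chr5:120907526-120907625 for Oas1a, chr5:120887614-120887713 for Oas1g, chr5:120777680-120777779 for Oas3 and chr5:120812574-120812673 for Oas1c.
Oas1a: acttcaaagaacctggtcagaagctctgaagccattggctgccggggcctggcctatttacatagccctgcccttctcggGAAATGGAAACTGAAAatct
Oas1g: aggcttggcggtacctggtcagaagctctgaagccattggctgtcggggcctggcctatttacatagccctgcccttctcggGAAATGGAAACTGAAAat
Oas3: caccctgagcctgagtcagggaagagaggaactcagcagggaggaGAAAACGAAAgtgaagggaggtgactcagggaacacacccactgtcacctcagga
Oas1c: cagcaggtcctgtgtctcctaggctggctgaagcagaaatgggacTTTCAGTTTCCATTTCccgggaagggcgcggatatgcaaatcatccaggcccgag

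In Oas1a and Oas1g, 2 overlapping matches form a single block of 16 bases, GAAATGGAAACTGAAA. The block ends 4 bases before the start of Oas1a and 2 bases before that of Oas1g. Oas1c holds the same 16 bases on the opposite strand, 98 bases before its start, and Oas3 has a single match 65 bases before its start. The gamma-activated site TTCNNNGAA, an element of interferon γ responses, was found in 1 of the 6 member windows, that of Oas1a, and in 2306 (7.02%) of all windows. A match is a description of these letters only. The windows of Oas1f, Oasl1 and Oasl2 held neither motif.

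The arrays were of uneven brightness. The share of gene spots well above background was highest on AAV-hGRβ replicate 1 (82.0%) and lowest on WT replicate 3 (54.0%). Per the file headers, 6 arrays were scanned on a first day and 3 on a second day (AAV-hGRβ replicate 1, AAV-GFP replicate 3 and WT replicate 2). These 3 arrays give 1 sample of each group, and AAV-hGRβ replicate 1 and AAV-GFP replicate 3 also shared a slide. All 8 hepatocyte markers examined were well above background on every array, and none passed the test in any comparison. Their mean log2 level was 7.66 to 7.96 on AAV-hGRβ, 7.99 to 8.28 on AAV-GFP and 7.82 to 8.13 on WT arrays. A level here is the log2 of a probe's signal minus the log2 of its array's 75th percentile, so that 0 lies at that percentile. Levels of different probes cannot be set against each other.

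Compared with AAV-GFP livers, AAV-hGRβ livers had higher signal for all 5 OAS genes whose probes were well above background on all 9 arrays, Oasl2, Oas1f, Oas1a, Oas2 and Oasl1. Of the 14391 genes measured that way, 0.987% were called higher when they alone were tested. Oas1b and Oas3 were kept for testing only because the AAV-hGRβ arrays were bright, and of these Oas1b passed and Oas3 did not. With them the test called 6 of 7 members higher, where 0.904% of all 16807 genes passed in either direction and 0.827% were higher. The median log2 difference was 3.25 over the 5 genes and 0.03 over all genes tested. The test was limma's moderated test over all 9 arrays with Benjamini-Hochberg adjustment at 0.05 across all genes. The difference was above 0 for 5 of the 5 genes, as it was for 53.6% of all genes. For each of the 5, every AAV-hGRβ array lay above every AAV-GFP array, which held for 9.46% of all genes. By size of rise, Oasl2, Oas1f and Oas1a stood at positions 10, 12 and 16 of the 16807 genes. Scaling each array to its median in place of the 75th percentile moved the median of all genes by -0.36 in this comparison and -0.35 against WT. All 7 members remained above 0 with that scaling, from 1.37 to 3.20, and Oasl1 no longer passed (adjusted p = 0.126). With normexp, another background correction that models signal plus background, 2 of the 7 passed, Oas1a and Oas1f, and without AAV-GFP replicate 1 the count was 4.

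**Figure D1:**
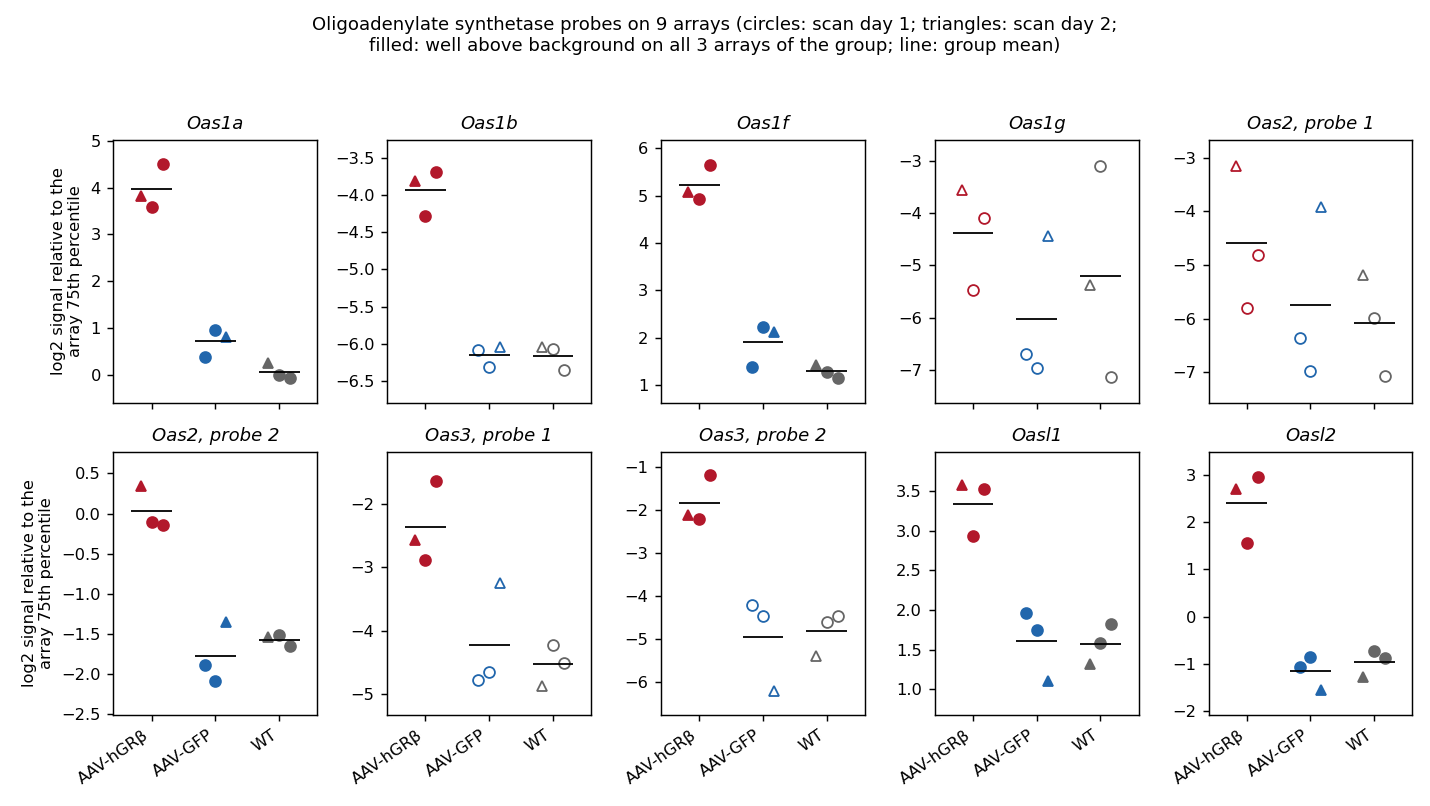
Log2 signal relative to the array's 75th percentile for each of the 10 OAS probes on the 9 arrays, with AAV-hGRβ left of AAV-GFP and WT. The line is the mean of 3 arrays, circles and triangles are the first and second scan day, and filled symbols mark groups in which all 3 arrays were well above background. In 8 panels the AAV-hGRβ points lie above all others, while the groups overlap for Oas1g and for probe 1 of Oas2. Among these 8, the panels of Oas1b and Oas3 show probes kept only through the AAV-hGRβ arrays. Of all genes tested, 9.46% had every AAV-hGRβ array above every AAV-GFP array, and 15.1% above every WT array.

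The Oas1 genes lie side by side on chromosome 5. Oas1a, an active synthetase whose probe lies at chr5:120132325-120132384 on mm7, the build of the array files, had levels of 3.83, 3.58 and 4.50 on the AAV-hGRβ arrays (replicates 1 to 3). Its levels were 0.37, 0.95 and 0.81 on the AAV-GFP arrays (replicates 1 to 3) and 0.26, -0.00 and -0.08 on the WT arrays (replicates 2 to 4). The 3 AAV-hGRβ arrays stood far above the other 6, and the AAV-GFP arrays all lay slightly above the WT arrays. The group means were 3.97 ± 0.47 for AAV-hGRβ, 0.71 ± 0.30 for AAV-GFP and 0.06 ± 0.18 for WT (SD, n = 3 each). The log2 difference was 3.25 (SE 0.27, limma adjusted p = 0.00305) from AAV-GFP and 3.91 (adjusted p = 0.000824) from WT.

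Oas1f, probed at chr5:120091906-120091965, had levels of 5.08, 4.93 and 5.65 on the AAV-hGRβ arrays, 1.38, 2.24 and 2.12 on the AAV-GFP arrays and 1.44, 1.28 and 1.16 on the WT arrays. The AAV-hGRβ arrays were clear of both other groups, whose values overlapped. Its log2 difference was 3.31 (SE 0.28, limma adjusted p = 0.00305) from AAV-GFP and 3.93 (adjusted p = 0.000824) from WT.

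Oas1b, the flavivirus resistance gene, was dim and had its probe at chr5:120055330-120055389. Its levels were -3.82, -4.28 and -3.69 on the AAV-hGRβ arrays, -6.08, -6.31 and -6.04 on the AAV-GFP arrays and -6.04, -6.07 and -6.35 on the WT arrays. Only the 3 AAV-hGRβ arrays were well above background. The rise is therefore a bound, at least 1.83-fold over AAV-GFP and at least 1.69-fold over WT, and the bound itself was not tested. Limma tested the fitted log2 differences, 2.21 from AAV-GFP (adjusted p = 0.00364) and 2.22 from WT (adjusted p = 0.00158). Both were taken against arrays not well above background. For such a bound the mean of the brighter group is set against the lowest signal that counted as well above background on the dimmer arrays, or the probe's own signal where that is higher. With normexp the fitted difference was -0.75 from AAV-GFP (adjusted p = 0.604). With bright local backgrounds replaced first it was 0.32 (adjusted p = 0.822), and with quantile normalization 1.40 (adjusted p = 0.200).

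Oas1g, the other gene that carries the 16-base block close to its start, could not be tested. Its levels were -3.56, -5.47 and -4.09 on the AAV-hGRβ arrays, -6.70, -6.96 and -4.43 on the AAV-GFP arrays and -5.37, -3.09 and -7.13 on the WT arrays. The groups overlapped, and the highest value of all came from a WT array. The probe was well above background on 2 AAV-hGRβ arrays, on no AAV-GFP array and on 1 WT array. In the array files this probe is placed over only 19 bases, chr5:120110128-120110146.

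The members with repeated synthetase units, Oas2 and Oas3, each had 2 probes. The Oas2 probe that passed the filter, at chr5:119964411-119964470, gave levels of 0.35, -0.11 and -0.14 on the AAV-hGRβ arrays, -1.89, -2.08 and -1.35 on the AAV-GFP arrays and -1.54, -1.51 and -1.65 on the WT arrays. The AAV-hGRβ arrays lay above all others, and the spread of the AAV-GFP arrays enclosed the WT arrays. Its log2 difference was 1.81 (SE 0.23, limma adjusted p = 0.0110) from AAV-GFP and 1.60 (adjusted p = 0.0115) from WT. The other Oas2 probe did not pass the filter, with levels of -3.16, -5.80 and -4.81 on AAV-hGRβ, -6.36, -6.97 and -3.92 on AAV-GFP and -5.19, -5.98 and -7.07 on WT arrays. It was well above background on 1 AAV-hGRβ and 1 AAV-GFP array, and its groups overlapped. With normexp the Oas2 difference from AAV-GFP was 0.69 (adjusted p = 0.597). The call against AAV-GFP was lost without AAV-GFP replicate 1 (adjusted p = 0.0632), and that against WT without WT replicate 3 or 4 (0.0515 and 0.0616).

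For Oas3, the probe that stood for the gene, at chr5:119987575-119987634, gave levels of -2.57, -2.88 and -1.64 on the AAV-hGRβ arrays, -4.77, -4.65 and -3.25 on the AAV-GFP arrays and -4.86, -4.21 and -4.50 on the WT arrays. AAV-GFP replicate 3 stood above the other AAV-GFP and the WT arrays, though below every AAV-hGRβ array. The log2 difference from AAV-GFP was 1.86 (95% interval 0.83 to 2.88) and did not pass (limma adjusted p = 0.128). Without AAV-GFP replicate 3 it was 2.35 (adjusted p = 0.0395). From WT it was 2.16 and passed (adjusted p = 0.0432), although leaving out 6 of the 9 arrays singly, or fitting slide as a random block, took it past 0.05 (adjusted p from 0.0592 to 0.252).

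The second Oas3 probe, at chr5:119990944-119991003, gave the opposite picture of AAV-GFP replicate 3. Its levels were -2.11, -2.21 and -1.19 on the AAV-hGRβ arrays, -4.20, -4.46 and -6.21 on the AAV-GFP arrays and -5.38, -4.59 and -4.47 on the WT arrays. AAV-GFP replicate 3 was here the lowest of all 9 arrays, while on the other probe it was the highest of the AAV-GFP and WT arrays. In a fit of single probes the second probe rose by 3.12 (SE 0.53, limma adjusted p = 0.0450) over AAV-GFP, and the first had an adjusted p of 0.143. With the 2 probes averaged, Oas3 passed against AAV-GFP (2.49, adjusted p = 0.0133). Each probe was well above background on 3 AAV-hGRβ, 2 AAV-GFP and 1 WT array. Normexp gave -0.24 for the gene against AAV-GFP.

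The OAS-like genes lie apart from the others on chromosome 5. Oasl2, which in mouse encodes an active synthetase, had levels of 2.69, 1.57 and 2.96 on the AAV-hGRβ arrays, -1.07, -0.85 and -1.55 on the AAV-GFP arrays and -1.27, -0.73 and -0.88 on the WT arrays. AAV-hGRβ replicate 2 was the lowest of its group and still above all other arrays, while the AAV-GFP and WT arrays overlapped. Its log2 difference was 3.56 (SE 0.36, limma adjusted p = 0.00525) from AAV-GFP and 3.37 (adjusted p = 0.00337) from WT. The probe lies at chr5:114132992-114133051. With normexp the difference from AAV-GFP was 2.51 (adjusted p = 0.0872).

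Oasl1, which makes no 2-5A and in mouse represses translation of Irf7, the interferon regulatory factor, was also higher. Its levels were 3.57, 2.94 and 3.52 on the AAV-hGRβ arrays, 1.96, 1.75 and 1.10 on the AAV-GFP arrays and 1.32, 1.58 and 1.82 on the WT arrays, from a probe at chr5:114158380-114158439. The AAV-hGRβ arrays were above the rest and the other 2 groups overlapped. The log2 difference was 1.74 (SE 0.28, limma adjusted p = 0.0288) from AAV-GFP and 1.77 (adjusted p = 0.0163) from WT. The first of these calls was lost when any 1 of 6 arrays was left out (AAV-hGRβ replicate 1 or 3, AAV-GFP replicate 1 or 2, WT replicate 3 or 4), with adjusted p of 0.0504 to 0.142. The call against WT was lost without WT replicate 3 or 4 or AAV-hGRβ replicate 3 (0.0554 to 0.0901).

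**Figure D2:**
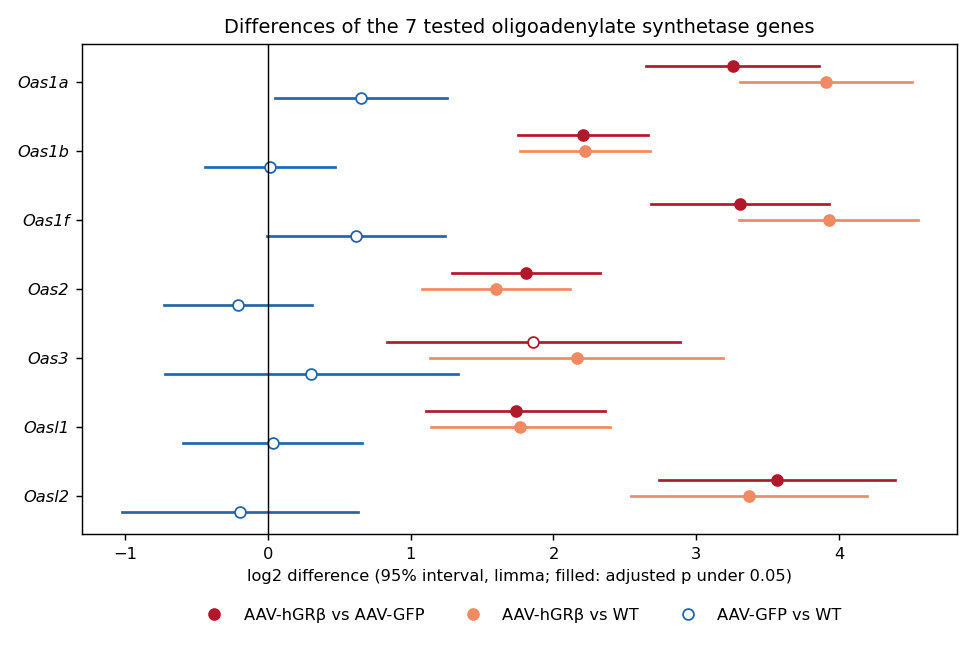
Log2 differences of the 7 tested OAS genes with 95% intervals from limma, for AAV-hGRβ against AAV-GFP, AAV-hGRβ against WT and AAV-GFP against WT. Filled points have an adjusted p under 0.05. The AAV-hGRβ points lie between 1.60 and 3.93, with Oas3 against AAV-GFP as the single open one, and the AAV-GFP against WT points lie between -0.21 and 0.65. For Oas1b the plotted AAV-GFP and WT levels were not well above background, so its rise is a bound of at least 1.83-fold over AAV-GFP.

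Against WT livers the same 5 genes were higher in AAV-hGRβ livers, and 3.02% of the genes well above background on all arrays were called higher when tested alone. Oas1b and Oas3, kept through the AAV-hGRβ arrays, also passed, where 3.24% of all genes passed in either direction and 2.49% were higher. The median log2 difference was 3.37 over the 5 genes and 0.10 over all genes. Their 5 differences were above 0, as were 57.2% of all genes, and no AAV-hGRβ array fell within the WT range, which held for 15.1% of all genes. Of the 544 genes of the array that passed here, 418 were higher in AAV-hGRβ, and with median scaling 332 of 583 were. Without WT replicate 3 the test called 4 of the 7 members, as it did without WT replicate 4, and with normexp it called 2. This comparison shares its AAV-hGRβ arrays with the one against AAV-GFP, so it is not a separate trial of the same rise.

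Between the 2 groups without the isoform the family did not pass the test. In AAV-GFP against WT livers, limma called 0 of the 7 members and 0 (0%) of the 16807 genes, and 1 member, Oas1a, had an unadjusted p under 0.05. The median log2 difference was 0.03 over the 5 genes well above background on all arrays and 0.04 over all genes, and 3 of the 5 were above 0, as were 53.6% of all genes. Oas1a was 0.65 higher in AAV-GFP (95% interval 0.05 to 1.26, unadjusted p = 0.0369, adjusted p = 0.491) and was the single member whose groups did not overlap, as were 5.72% of all genes. Oas1f was 0.62 higher in AAV-GFP (adjusted p = 0.491). The other differences were Oas3 0.30, Oasl1 0.03, Oas1b 0.01, Oasl2 -0.20 and Oas2 -0.21, each with an interval that includes 0, and for Oas1b neither group was well above background. In the order of group levels AAV-hGRβ therefore came first for each of the 5 genes well above background on all arrays. It also came first for Oas1b and Oas3, which were kept only through the AAV-hGRβ arrays. For all tested members AAV-GFP and WT did not differ beyond their spread in the adjusted test.

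For each of the 5 genes well above background on all arrays, the difference between AAV-hGRβ and AAV-GFP was above 0 on both scan days. It was also above 0 on both days for Oas1b and Oas3, which were kept only through the AAV-hGRβ arrays. The share of all genes above 0 on both days was not counted. With all arrays in the fit that share was 53.6%. On the first day (2 arrays against 2) the difference of the members ranged from 1.37 for Oasl1 to 3.48 for Oas1f. On the second day (1 array against 1, on the same slide) it ranged from 0.68 for Oas3 to 4.25 for Oasl2. Oas1b was nearly the same on both days, at 2.20 and 2.22, both taken against dim AAV-GFP arrays, and Oas2 was at 1.86 and 1.70. Oas3 was the least even, at 2.45 on the first and 0.68 on the second day. With scan day as a block, limma called 6 of 7 members against AAV-GFP and 7 of 7 against WT. This fit called more genes of the whole array. Of 16807 genes it called 254 against AAV-GFP and 1212 against WT, where 152 and 544 passed without the block.

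**Figure D3:**
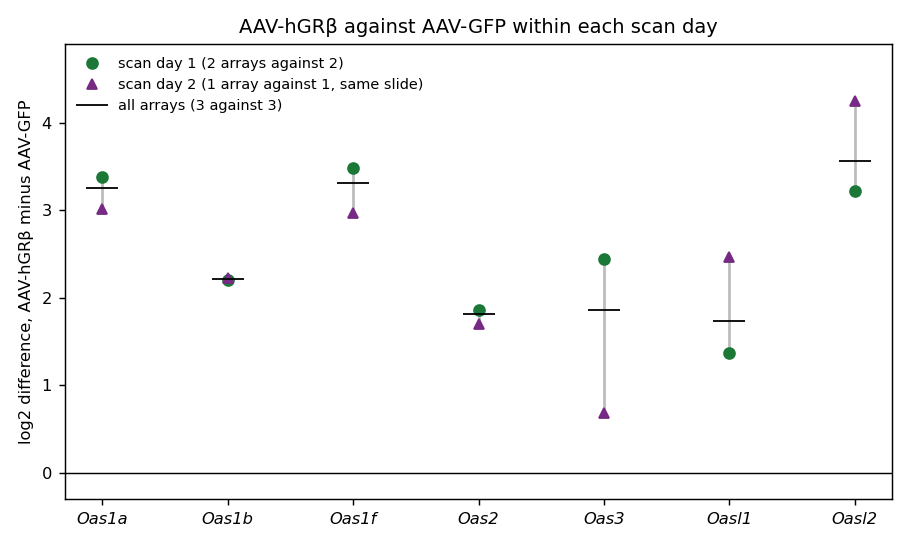
Log2 difference of AAV-hGRβ minus AAV-GFP for each tested OAS gene within the first scan day (circles), within the second (triangles) and over all arrays (lines). All points lie above 0, and the days are closest for Oas1b (2.20 and 2.22, against AAV-GFP arrays not well above background) and farthest apart for Oas3 (2.45 and 0.68). Both of these genes were kept for testing only through the AAV-hGRβ arrays. Over all arrays the difference was above 0 for 53.6% of all genes.

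The remaining genes of the Oas1 cluster on the array are Oas1c, Oas1d, Oas1e and Oas1h, of which the Oas1c and Oas1d proteins lack synthetase activity in mouse. Oas1c, which carries the 16-base block in reverse, had levels of 1.38, 1.12 and 1.32 on the AAV-hGRβ arrays, -0.86, -0.64 and -0.63 on the AAV-GFP arrays and -0.85, -1.49 and -0.97 on the WT arrays. The AAV-hGRβ arrays were well clear of the rest, and the rise was 1.98 (SE 0.20, limma adjusted p = 0.00525) over AAV-GFP and 2.38 (adjusted p = 0.00158) over WT. Oas1e had levels of -1.79, -2.42 and -1.94 on the AAV-hGRβ arrays, -3.44, -3.67 and -3.22 on the AAV-GFP arrays and -3.74, -4.61 and -4.11 on the WT arrays. Its 3 groups did not overlap, with WT lowest. It missed the threshold against AAV-GFP (1.39, 95% interval 0.79 to 2.00, adjusted p = 0.0559) and passed against WT (2.10, adjusted p = 0.00709). Oas1d and Oas1h did not pass the filter, since Oas1d and 1 of the 2 Oas1h probes were well above background only on AAV-hGRβ replicate 1 and the other Oas1h probe on no array.

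Genes of the family resemble each other in sequence, so the probes were compared with each other. Among the 15 probes of the 12 OAS genes, each 60 bases long, 105 pairs were compared. The longest run of identical bases shared by any pair was 10 bases, and 0 pairs shared 20 bases. Probes placed at different positions can lack a shared run even where each matches the transcript of a related gene. The probes were not compared with transcripts, so binding of a probe to RNA of another OAS gene was not tested. Genes that border the family on chromosome 5 did not pass the test. Of the 5 nearest tested genes on each side of the Oas1, Oas2 and Oas3 cluster and of the Oasl pair, in RefSeq order, limma called 0 of 20 for AAV-hGRβ against AAV-GFP, and 3 had an unadjusted p under 0.05. Over all genes 0.904% were called and 11.7% had such a p, so with 20 genes neither count stands apart from the rest of the array. Their log2 differences ran from -0.62 to 0.82 with a median of -0.09, and the smallest adjusted p was 0.0919.

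Downstream of the synthetases, 3 genes linked to 2-5A did not pass the test. Limma called 0 of the 3 in any comparison, and 0 had an unadjusted p under 0.05. With 0.904%, 3.24% and 0% of all genes called in the 3 comparisons, 0 of 3 is no result about these genes. Abce1, an ATP-binding protein of ribosome recycling that was first described as a brake on the 2-5A pathway, differed by -0.04 between AAV-hGRβ and AAV-GFP (95% interval -0.55 to 0.46, adjusted p = 0.971). Pde12 and Akap7, which degrade 2-5A in human and in mouse cells, differed by 0.01 (-0.47 to 0.49) and 0.20 (-0.25 to 0.66). The upper ends of these intervals lie below the lower ends for Oas1a, Oas1f, Oas2, Oasl1 and Oasl2 in the same comparison, of which the lowest is 1.11 for Oasl1. The difference between these sets was not tested.

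Among 9 other sensors of nucleic acid and their partners, 2 rose in AAV-hGRβ against AAV-GFP and 3 against WT, and none was called lower. Of all genes 0.827% and 2.49% were called higher in these comparisons. The difference was above 0 for 7 of the 9 against AAV-GFP, as for 53.6% of all genes. It was above 0 for 8 against WT, as for 57.2% of all genes. Against WT, Mavs, the adaptor of the RIG-I family, was at -0.70 (limma unadjusted p = 0.0243, adjusted p = 0.146). Zbp1, which binds Z-form nucleic acid and can trigger cell death, was higher by 2.50 (limma adjusted p = 0.00423) and Dhx58, a helicase of the RIG-I family, by 1.72 (adjusted p = 0.0148) over AAV-GFP. Ifih1, which encodes the sensor MDA5, was 1.57 higher (adjusted p = 0.0765) than in AAV-GFP and rose by 2.09 (adjusted p = 0.0159) over WT. Ddx58, which encodes RIG-I, was 0.78 higher (adjusted p = 0.145) than in AAV-GFP. The list's median was 0.86 against AAV-GFP and 0.79 against WT.

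Of 16 genes of interferon production and signalling, 3 rose against AAV-GFP and 3 against WT, and none was called lower. The shares of all genes called higher were 0.827% and 2.49%. The difference was above 0 for 11 of the 16 against AAV-GFP and for 12 against WT, as for 53.6% and 57.2% of all genes. Ifnb1, the gene of interferon β, was well above background only on the AAV-hGRβ arrays and was kept for testing only through them. There it was at least 5.12-fold above AAV-GFP and at least 4.70-fold above WT, bounds that were not tested themselves. The fitted log2 differences, against arrays not well above background, were 4.27 from AAV-GFP (limma adjusted p = 0.000664) and 3.69 from WT (adjusted p = 0.000824). Irf7, which drives interferon genes, rose by 2.65 (adjusted p = 0.00305) over AAV-GFP, and Usp18, which limits interferon receptor signalling, by 2.16 (adjusted p = 0.00648). Irf9, which binds the ISRE, was 0.48 higher than in AAV-GFP (adjusted p = 0.297) and 0.73 higher than in WT (adjusted p = 0.0523). The list's median was 0.41 against AAV-GFP and 0.59 against WT. In AAV-GFP against WT, limma called 0 of the 9 and 0 of the 16 genes, with 0 and 2 at an unadjusted p under 0.05.

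**Figure D4:**
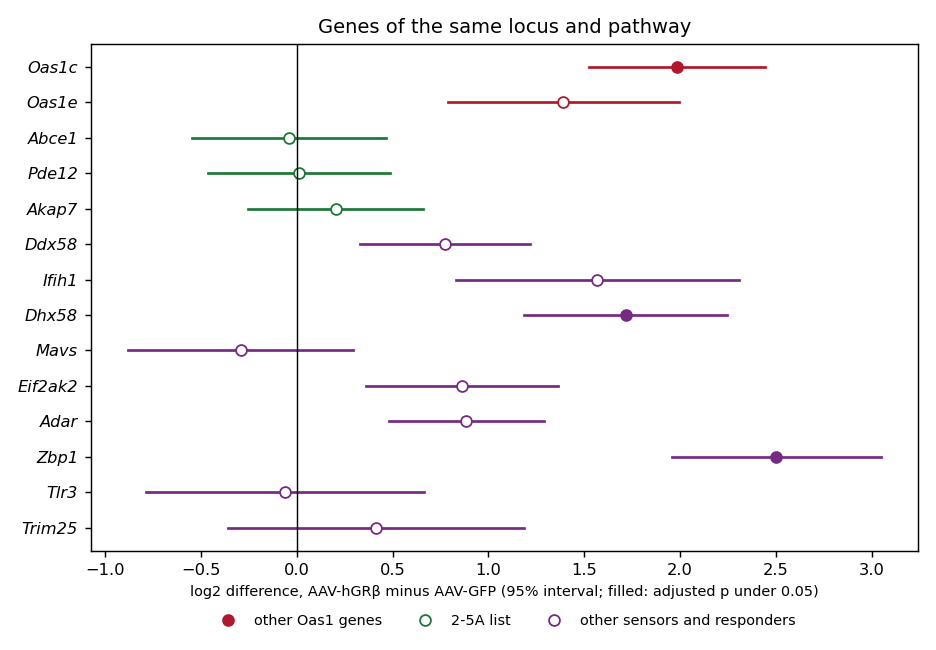
Log2 difference of AAV-hGRβ minus AAV-GFP with 95% limma intervals for 2 other Oas1 genes, 3 genes of the 2-5A list and 9 other sensors and responders, filled where the adjusted p was under 0.05. Oas1c, Dhx58 and Zbp1 are filled, and the 3 genes of the 2-5A list lie between -0.04 and 0.20.

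The mean profile of the 7 tested members, each centred on its mean over the 9 arrays, was 1.81, 1.33 and 2.10 on the AAV-hGRβ arrays, -0.93, -0.77 and -0.66 on the AAV-GFP arrays and -1.02, -0.87 and -0.99 on the WT arrays. AAV-hGRβ replicate 2 was the lowest of its group and replicate 3 the highest. The mean takes in Oas1b and Oas3, which were kept only through the AAV-hGRβ arrays, so part of its shape follows from the filter. Likeness to this profile was taken as the root-mean-square difference in log2 over the 9 arrays, which had a median of 1.27 over 16704 genes. Genes named only by an identifier were left out of the ranking. The 6 closest of the other genes outside the family were Spats2l (0.208), the interferon-induced genes Ifit3 (0.241) and Ifi27l2b (0.254), Cplane1 (0.272), Zbp1 (0.283) and the glutamate receptor subunit gene Gria3 (0.296). Gria3 was dim, with mean levels of -2.92 on AAV-hGRβ, -5.18 on AAV-GFP and -5.49 on WT arrays. The members themselves lay between 0.242 for Oas1b and 0.543 for Oas1f, so each of these 6 genes was closer to the mean profile than most members. The value of Oas1b rests on AAV-GFP and WT arrays that were not well above background.

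All tested markers of immune cells had a log2 difference above 0 for AAV-hGRβ against AAV-GFP, as did 53.6% of all genes. Those that passed in this comparison were mainly of T and NK cells, which was not so against WT. Against WT limma called higher 4 of 12 T and NK cell and 1 of 7 tested dendritic cell markers. It also called 2 of 4 tested neutrophil and monocyte, 2 of 8 macrophage and Kupffer cell and 1 of 4 tested B cell markers. The share of all genes called higher there was 2.49%, and none of these markers was called lower. Against AAV-GFP limma called higher 4 of 12 T and NK cell markers, 1 of 7 tested dendritic cell markers, 1 of 4 tested neutrophil and monocyte markers, 0 of 8 macrophage and Kupffer cell markers and 0 of 4 tested B cell markers. Of all genes 0.827% were called higher. The median log2 differences of these lists, in that order, were 1.73, 1.03, 1.33, 0.60 and 0.76. In the same order, 8, 2, 3, 2 and 1 markers had an unadjusted p under 0.05. Of the T and NK cell markers, 12 were well above background on all AAV-hGRβ arrays, 9 on all AAV-GFP and 7 on all WT arrays. Endothelial, stellate, cholangiocyte and hepatocyte markers had 0 called of 5, 5, 4 and 8. Their median log2 differences were -0.22, -0.68, 0.13 and -0.28, with 0, 1, 2 and 0 markers above 0 and 0, 2, 0 and 3 at an unadjusted p under 0.05. Summed signal in units of the array's 75th percentile was 5.98 to 13.6 for the T and NK cell markers on AAV-hGRβ arrays, 2.83 to 3.25 on AAV-GFP arrays and 2.61 to 3.00 on WT arrays. For macrophage and Kupffer cell markers the sum was 193 to 275 on AAV-hGRβ arrays, 77.0 to 152 on AAV-GFP arrays and 78.1 to 102 on WT arrays. It was 255 to 313 on AAV-hGRβ, 96.1 to 139 on AAV-GFP and 80.4 to 120 on WT arrays for dendritic cell markers. Such a sum follows the brightest probes of a list most, so here it need not speak for most dendritic cell markers. The mean log2 level of the 8 dendritic cell markers was -2.53 to -1.86 on AAV-hGRβ, -3.55 to -2.23 on AAV-GFP and -3.28 to -2.73 on WT arrays, so by this measure AAV-hGRβ and AAV-GFP overlapped. The sum was 55.5 to 92.0 on AAV-hGRβ, 12.6 to 18.2 on AAV-GFP and 8.56 to 16.2 on WT arrays for the 5 neutrophil and monocyte markers on the array. B cell markers summed to 2.47 to 2.70 on AAV-hGRβ, 0.940 to 2.17 on AAV-GFP and 0.951 to 1.91 on WT arrays. No marker of these lists was below background on every array. Their part in the OAS rise was not tested, and in bulk liver RNA more cells of a type and more RNA per cell cannot be told apart.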

How the data were processed

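Per the file headers, the deposited array files held linear intensity values of 1 dye, Cy3, which the scanner software had corrected for background on each array without scaling arrays to each other. Per the submitters' processing notes this was Agilent Feature Extraction 9.5, and 500 ng of RNA was labelled per array, per the labels' protocols. The deposited series table held the same intensity values, with a largest difference of 0, neither logged nor centred, with column medians of 34.2 to 75.6. Later steps were not given in the sources used here.

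Control and outlier spots were left out, spots of a probe were averaged, and log2 of the intensity minus the array's 75th percentile was used. Probes well above background on every array of 1 or more groups were kept (24290 probes), and each of the 5477 genes with several was represented by its brightest probe on average. Probes were named through RefSeq names for GRCm38.p6, 22951 by accession, 6659 by symbol and 3109 by older symbol, and 8455 kept the name in the files. Positions of probes are those of the array files. No gene annotation of mm7 was used here, so exons and UTRs were not assigned. Over the 9 arrays 3 spots were saturated, none of a member. The number of arrays limits the precision.

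Group means were tested two-sided with lmFit and eBayes of limma 3.58.1 (R 4.3.3, 6 residual degrees of freedom), with Benjamini-Hochberg adjustment over all genes of a comparison, and the fit was tested on simulated data. Every adjusted p is from limma. Named genes were all OAS genes with every probe, the genes of the 2-5A list, the genes past the threshold in the sensor and interferon lists together with Ifnb1, Ddx58, Ifih1, Irf9 and Irf7, and the 6 genes of closest profile. From these lists 2 genes are not reported here and are left out of the counts. Markers were listed for hepatocytes, T and NK cells, B cells, macrophages and Kupffer cells, dendritic cells, neutrophils and monocytes, endothelial cells, stellate cells and cholangiocytes. The members, lists and rule were chosen with earlier results of these data known. Alternatives covered background correction, scaling, probe filter, probe choice, arrays in the fit, scan day, slide (5 slides), replicate number and each array left out.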

Additional observations from a re-analysis of the deposited data

How the results depend on the processing

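In AAV-hGRβ against AAV-GFP, 6 OAS genes were called, and 5 to 7 under the alternatives that drop no single array, other than normexp (2), no filter on dim probes (4) and the replicate block (0). Against WT 7 were called, and 5 to 7 other than with normexp (2), no filter (4) and the replicate block (0). Leaving out single arrays gave 4 to 7 in both comparisons. The lowest count, 4, came without AAV-GFP replicate 1 against AAV-GFP, and without WT replicate 3 or without WT replicate 4 against WT. AAV-GFP against WT had 0 calls of members in every setting, 0 to 0 with single arrays left out. The numbers could pair AAV-hGRβ with AAV-GFP arrays, and the labels do not say so. Deviations of same-numbered arrays correlated at 0.012, 0.241 and 0.007. The value for number 2, whose arrays share a scan day, was the highest of all pairs between these groups. AAV-hGRβ replicate 1 correlated best with AAV-GFP replicate 3 (0.208), the array of its scan day and slide. Whether the numbers mark pairs cannot be told from so few arrays. The fit with the replicate block, which leaves fewer residual degrees of freedom, called 2 genes of the whole array against AAV-GFP and 1 against WT. The block cannot move a difference between AAV-hGRβ and AAV-GFP, whose numbers are the same, and the Oas1a call was lost (adjusted p = 0.0727).

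With normexp the sign turned for Oas1b (-0.75 against AAV-GFP, -0.49 against WT), Oas3 (-0.24 and -0.033), and in AAV-GFP against WT for Oas2 (0.028) and Oasl1 (-0.018). The cause was not tested. Other sign changes fell in AAV-GFP against WT. For Oas1b these were -0.0050 (slide as a random block), -0.13 (replicate block) and with single arrays left out it ran from -0.088 to 0.096. For Oasl1 it was -0.066 (slide) and ran from -0.15 to 0.28 with single arrays left out. Oas3 ran from -0.18 (without AAV-GFP replicate 3) to 0.58 and Oasl2 from -0.35 to 0.00028 (without AAV-GFP replicate 3). Within scan days 1 and 2, with no test, Oas3 was at -0.35 and 1.61, Oas2 at -0.41 and 0.19, Oasl1 at 0.16 and -0.21 and Oas1b at 0.020 and -0.00088.

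Over all genes, 152 passed against AAV-GFP, with 29 (no filter), 13 (normexp), 99 (median scaling), 75 (only the 6 arrays), 73 (slide) and 254 (scan day block), and 34 to 166 with single arrays left out. Against WT 544 passed, with 84 (no filter), 45 (normexp), 341 (6 arrays), 59 (slide), 1212 (scan day block), and 94 to 1936 with single arrays left out. AAV-GFP against WT had 0, with 4 (median scaling) and 1 (quantile, scan day block, and without WT replicate 4). Signal near background limits Oas1b, Oas1g, Oas3 and the dim Oas2 probe.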

Other observations

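The 16-base block of Oas1a and Oas1g was looked for in all RefSeq windows after it had been seen in these genes. It lay, on either strand, in 7 of 32851 windows of 5 genes, 3 of them Oas1a, Oas1g and Oas1c and the others Apol9a and Apol9b, which are apolipoprotein L genes. Of the 2, Apol9b was tested. It was 1.13 higher in AAV-hGRβ than in AAV-GFP (limma adjusted p = 0.0626), rose by 1.27 over WT (adjusted p = 0.0258) and was 0.14 higher in AAV-GFP than in WT (adjusted p = 0.776). Each AAV-hGRβ array lay above each AAV-GFP and WT array, which held for 9.46% of all genes against AAV-GFP and 15.1% against WT.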
